A study of Mus musculus with 6 samples.

Results

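The genes described here build, trim and cap the N-glycans of glycoproteins, or make, transfer or remove the sialic acid at their ends. The list holds 38 genes, chosen by name for these functions, out of 21492 genes in the expression table, and all 38 were measured above the filter on low values. They were compared in 3 libraries of Dcir-/- osteoclasts (OCs), numbered 21, 22 and 83, and 3 libraries of WT OCs, numbered 3, 82 and 94. Dcir-/- mice lack DCIR, a lectin receptor with an inhibitory motif that is encoded by Clec4a2, in the whole body, and were backcrossed to C57BL/6J. WT mice were C57BL/6J animals from a supplier, housed in the same rack before use, so that genotype cannot be told apart from the source of the animals. Mice of both genotypes were 8 to 12 weeks old. Bone marrow cells of both genotypes were grown with M-CSF (20 ng/ml), the growth factor of the macrophage lineage, and RANKL (100 ng/ml), the cytokine that drives OC formation. The labels place the cells at day 4 with 2 days of RANKL, whereas the methods of the study give a longer exposure. Whether each library stands for its own mouse or culture is not said in any source, and a p-value therefore covers only the spread among the libraries, which may be technical.

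An N-glycan is attached to a nascent protein in the endoplasmic reticulum as a glucose-tipped, mannose-rich block. Glucosidases and mannosidases then trim it, and in the Golgi N-acetylglucosaminyltransferases start branches, a core fucose may be added, and galactose and then sialic acid extend each branch. Neuraminidases cut sialic acid off again and expose galactose. DCIR is a C-type lectin that binds an asialo-biantennary N-glycan, a glycan with galactose at the ends of its branches, so the enzymes that set the ends of N-glycans bear on the ligand of the receptor. The question addressed by the comparison is whether OCs without DCIR differ in the mRNA of these enzymes. Messenger RNA was measured, not the glycans or the enzyme activities.

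No member passed the test for a difference between Dcir-/- and WT OCs. Mean levels were higher in Dcir-/- OCs for 22 members and lower for 16, and 32 of 38 had a log2 fold change of under 0.2 in size. The farthest from 0 were Man1a, a Golgi mannosidase, at -0.91, B4galt6, a lactosylceramide synthase, at -0.68, and St3gal4, a sialyltransferase, at -0.59, all with a lower mean in Dcir-/- OCs. Neu1, the lysosomal neuraminidase, averaged 131 ± 5.71 CPM in Dcir-/- OCs against 138 ± 8.35 CPM in WT OCs (SD, n = 3 each), and St6gal1, which adds α2,6-linked sialic acid to N-glycans, averaged 131 ± 2.03 CPM in Dcir-/- OCs against 139 ± 4.49 CPM in WT OCs. CPM is the adjusted count of the authors scaled by the mean library total of 33577739.2, and 1 CPM equals 33.6 adjusted counts. Tests were made with limma on log2(CPM + 1), a scale that understates changes of low genes, and a call is a Benjamini-Hochberg adjusted p under 0.05 over the 14047 genes tested.

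By limma, 0 of 38 members were called higher and 0 were called lower, against 0.149% and 0.292% of all genes tested. At an unadjusted p under 0.05 stood 2 members with a higher mean in Dcir-/- OCs (B4galt7 and St3gal2) and 3 with a lower mean (Man1a, B4galt6 and St3gal4). These are 5.26% and 7.89% of the members, beside 5.82% and 6.68% of all genes, so the members stood close to the background. Without Dcir-/- library 21 there were 0 such members with a higher and 2 with a lower mean, and without WT library 94 there were 4 of each. The shares of all genes with these libraries left out are not given here, so these counts cannot be set against a background. The 3 Dcir-/- libraries all lay above the 3 WT libraries for 4 members (Ganab, Man1b1, B4galt7 and St3gal2), or 10.5%, beside 10.5% of all genes. All lay below them for 3 members (Man1a, St3gal4 and St6gal1), or 7.89%, beside 9.34% of all genes. The median log2 fold change was 0.04 over the members and 0.01 over all genes. On the log2(CPM + 1) scale, the 95% interval lay within 1.5-fold in either direction for 33 members and within 2-fold for 35. For members near the filter of 1 CPM (Neu3, St3gal6, Nanp and B4galt2) this scale understates fold changes. Their intervals therefore do not bound the fold change of the levels themselves. The exceptions to the wider bound were Man1a, Man2a2 and B4galt6.

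**Figure D1:**
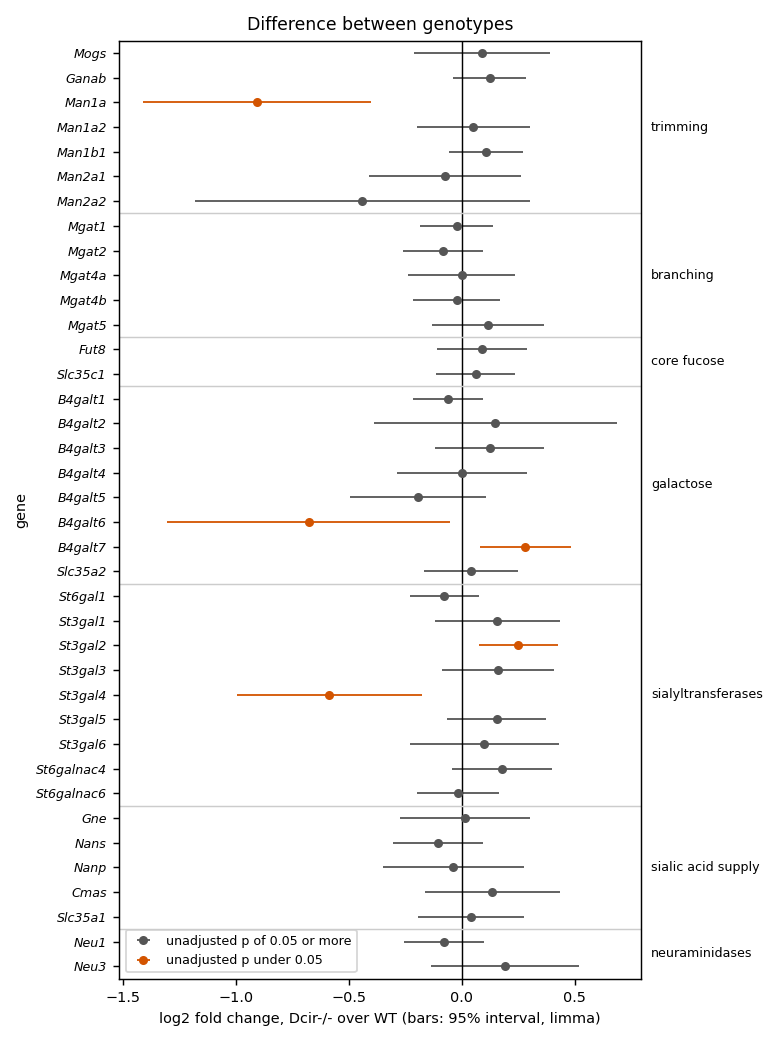
Log2 fold change of each of the 38 members, Dcir-/- over WT OCs (x axis, on the log2(CPM + 1) scale), with the 95% interval from limma as bars and genes ordered by role on the y axis. Most points lie close to 0, and the 5 genes with an unadjusted p under 0.05 (orange) are Man1a, B4galt6, B4galt7, St3gal2 and St3gal4, none of which passed adjustment over all genes.

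Libraries and labels were checked first. Clec4a2 had 0.788, 1.153 and 0.496 CPM in Dcir-/- libraries 21, 22 and 83, against 275, 239 and 289 CPM in WT libraries 3, 82 and 94, as the labels require. The totals of the adjusted counts were 33035020.2 to 34068308.6 in Dcir-/- libraries against 33155299.7 to 33931297.4 in WT libraries. They were set alike by the adjustment and give no sequencing depth. OC markers were abundant in all libraries, and all 10 had a higher mean in Dcir-/- OCs, with 0 called by limma, 4 at an unadjusted p under 0.05 and a median log2 fold change of 0.15. Their summed level was 17800 to 23301 CPM in Dcir-/- libraries, highest in library 21, against 17387 to 19706 CPM in WT libraries. Dcir-/- libraries 22 (17800 CPM) and 83 (19114 CPM) lay within the WT range. The mean deviation of these markers from the mean of all libraries was 0.33, -0.04 and 0.03 in Dcir-/- libraries 21, 22 and 83 on the log2 scale. It was -0.15, -0.11 and -0.06 in WT libraries 3, 82 and 94. Mmp9 and Acp5 had the highest CPM, a scale that does not allow for gene length. All 9 tested macrophage markers had a lower mean in Dcir-/- OCs (2 called, median -1.33). Their sum was 2755 to 3058 CPM in Dcir-/- libraries against 3060 to 4615 CPM in WT libraries, with WT library 3 highest. Csf1r made up most of this sum, and its own log2 fold change was -0.007 (SE 0.10). Neutrophil markers were lower for 9 of 9 tested (4 called, median -0.87), at 353 to 456 CPM in Dcir-/- libraries against 623 to 772 CPM in WT libraries. Ngp and S100a9 had the highest CPM among them, again without allowing for gene length. Of 8 monocyte markers 6 had a lower mean in Dcir-/- OCs (1 called). Of the markers of B cells, T cells and red cells 4 were measured and 1, Trac, passed the filter and was not called. Per kb of merged exons, Trac had 7.58, 7.65 and 7.54 CPM in Dcir-/- libraries 21, 22 and 83. It had 8.60, 8.95 and 8.76 CPM per kb in WT libraries 3, 82 and 94 (log2 fold change -0.18). Ms4a1, below the filter, was at 0 in Dcir-/- library 22. In such bulk RNA, fewer cells of a type and less RNA per cell cannot be told apart. WT library 3 and Dcir-/- library 21 lay at the ends of the first principal component of all genes (53.5% of the variance). WT library 94 lay apart on the second (27.5%). Values without some of these libraries are therefore given for the members farthest from 0 and for the genes with an unadjusted p under 0.05.

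The members spanned a wide range of levels. Levels are compared between genes as CPM per kb of merged exon length. Mgat4b, a branching enzyme, was the highest, with 58.2 ± 0.906 CPM per kb in Dcir-/- OCs against 59.3 ± 5.58 CPM per kb in WT OCs (SD, n = 3 each). Ganab, the catalytic subunit of glucosidase II, followed at 54.4 ± 1.25 CPM per kb in Dcir-/- OCs against 49.97 ± 2.23 CPM per kb in WT OCs, and St3gal1, a sialyltransferase mainly of O-glycans, had 49.4 ± 1.98 and 44.7 ± 7.43 CPM per kb in Dcir-/- and WT OCs. The libraries of these 3 genes did not overlap one another in Dcir-/- OCs, whereas those of Ganab and St3gal1 did in WT OCs. Neu1, Mgat2, Mgat1 and B4galt1 came next, between 31.6 and 35.0 CPM per kb in Dcir-/- OCs against between 32.5 and 37.0 CPM per kb in WT OCs. The libraries of Neu1 and Mgat2 overlapped in both genotypes, as did those of Mgat1 and B4galt1. At the low end stood Neu3 (0.463 CPM per kb in Dcir-/- OCs against 0.369 in WT OCs), B4galt2 (0.415 in Dcir-/- OCs and 0.362 in WT OCs) and St3gal6 (0.205 in Dcir-/- OCs and 0.181 in WT OCs).

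**Figure D2:**
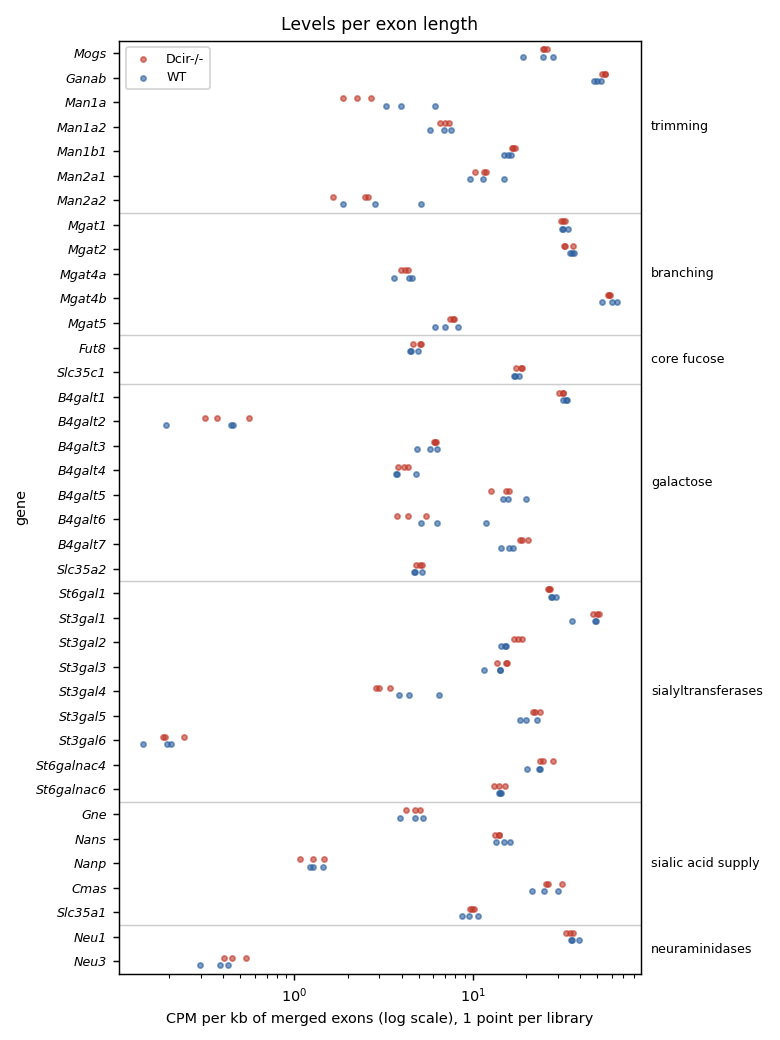
Level of each member in CPM per kb of merged exons (x axis, log scale), with 1 point per library, Dcir-/- above WT in each row, and genes ordered by role. Mgat4b, Ganab and St3gal1 are the highest, and Neu3, B4galt2 and St3gal6 lie below 1 CPM per kb in all 6 libraries.

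Per kb, the enzymes that trim the glycan were led by Ganab and Mogs. They had 54.4 and 25.3 CPM per kb in Dcir-/- OCs, against 49.97 and 24.1 CPM per kb in WT OCs. Ganab cuts the inner glucoses as part of glucosidase II, and had 302, 289 and 299 CPM in Dcir-/- libraries 21, 22 and 83, against 271, 285 and 261 CPM in WT libraries 3, 82 and 94. The groups did not overlap, but the difference was small (log2 fold change 0.12, SE 0.07, adjusted p = 0.536). Mogs, glucosidase I, removes the outermost glucose and averaged 73.2 ± 1.63 CPM in Dcir-/- OCs against 69.6 ± 13.4 CPM in WT OCs. Man1b1, the mannosidase of the early secretory pathway that also takes part in the disposal of misfolded proteins, had 93.1, 91.1 and 89.7 CPM in Dcir-/- libraries, against 88.2, 84.8 and 81.1 CPM in WT libraries. It too did not overlap between groups, again with a small difference (log2 fold change 0.11, SE 0.07, adjusted p = 0.598).

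Man1a, a Golgi α-mannosidase I that cuts mannose before branching can start, had the largest difference of the 38 genes. It had 18.1, 26.1 and 21.6 CPM in Dcir-/- libraries 21, 22 and 83, against 59.2, 38.4 and 31.5 CPM in WT libraries 3, 82 and 94. All Dcir-/- libraries lay below all WT libraries, and WT library 3 was the highest. The means were 21.9 ± 3.98 CPM in Dcir-/- OCs against 43.0 ± 14.4 CPM in WT OCs (SD, n = 3 each), which gave a log2 fold change of -0.91 (SE 0.22, 95% interval -1.41 to -0.40, unadjusted p = 0.00302 and adjusted p = 0.158 by limma). Without WT library 3 it was -0.66, and without WT library 94 it was -1.10. It was -0.53 without both Dcir-/- library 21 and WT library 3. With 1 library left out at a time, the adjusted p ranged between 0.0624 (without WT library 94) and 0.634 (without Dcir-/- library 21). Man1a lies at chr10:53904785-54076609 on the minus strand (mm10), and 1.52% of its exon bases are shared with an antisense-strand transcript. Its promoter is shown because this gene had the largest difference; the RefSeq window (GRCm38.p6, chr10:54075688-54075987, minus strand) runs 250 bases before to 50 after the RefSeq start site, which lies inside the annotated gene span. Short motifs were searched on both strands of such windows, each on its own, also where matches of different motifs overlap. They were GAGGAA (PU.1, the myeloid factor), TGANTCA (AP-1), TCACGTGA (an E-box of MITF and TFEB), TGGAAA (NFAT) and GGGCGG (a GC box of Sp1). Capitals mark the matches, which here are GC boxes on the opposite strand at -141 and -42.
Man1a promoter: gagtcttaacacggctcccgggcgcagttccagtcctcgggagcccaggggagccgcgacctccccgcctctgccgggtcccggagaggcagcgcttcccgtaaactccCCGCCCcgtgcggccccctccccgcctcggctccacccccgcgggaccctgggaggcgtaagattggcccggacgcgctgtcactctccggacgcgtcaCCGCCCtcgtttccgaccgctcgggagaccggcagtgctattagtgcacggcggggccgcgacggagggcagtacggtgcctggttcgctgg

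Such windows were found for 30 of the 38 members, in 41 promoters. The GC box was present in 70.7% of the 41 member promoters (27 of the 30 genes), beside 35.7% of all 32851 promoters of that length. The 32851 promoters were not limited to the genes tested here, whereas all members were tested, so the sets are unlike. PU.1 matches were in 29.3% of member promoters (10 genes) and 28.3% of all promoters, AP-1 in 7.32% and 7.81%, and NFAT in 17.1% and 21.4%. The E-box was in 0 member promoters and in 0.974% of all. A match is a description of letters and not evidence of binding.

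The other mannosidases varied less between genotypes. Man1a2, the close relative of Man1a, averaged 55.6 ± 3.25 CPM in Dcir-/- OCs against 53.8 ± 7.20 CPM in WT OCs, for a log2 fold change of 0.05 (SE 0.11). Man2a1, Golgi α-mannosidase II, which trims the glycan after the first branch, averaged 81.3 ± 6.15 CPM in Dcir-/- OCs against 86.8 ± 19.2 CPM in WT OCs. Its relative Man2a2 had 17.0, 25.7 and 26.8 CPM in Dcir-/- libraries, against 53.2, 29.4 and 19.3 CPM in WT libraries. The groups overlapped, since WT library 94 lay below Dcir-/- libraries 22 and 83. The log2 fold change of Man2a2 was -0.44 (SE 0.32, 95% interval -1.18 to 0.30, adjusted p = 0.644). It was -0.07 without WT library 3, -0.77 without WT library 94 and 0.13 without both Dcir-/- library 21 and WT library 3.

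The branching enzymes lay close together in both genotypes. Mgat1, which starts the first branch and opens the way to complex N-glycans, had 152, 148 and 155 CPM in Dcir-/- libraries 21, 22 and 83, against 151, 149 and 162 CPM in WT libraries 3, 82 and 94. Mgat2 starts the second branch and so completes the biantennary core. It averaged 89.1 ± 5.68 CPM in Dcir-/- OCs against 94.3 ± 2.61 CPM in WT OCs, for a log2 fold change of -0.08 (SE 0.08, 95% interval -0.26 to 0.09). Mgat4a and Mgat4b add a further branch on one arm, and their log2 fold changes were 0.00 (SE 0.10) and -0.02 (SE 0.08). Mgat5, which makes the branch on the other arm that carries polylactosamine, averaged 79.2 ± 1.94 CPM in Dcir-/- OCs against 73.4 ± 10.9 CPM in WT OCs (log2 fold change 0.12, SE 0.11). None of the 5 genes was separated by genotype, and 1 had a higher and 4 a lower mean in Dcir-/- OCs. Per kb, their sum was 136 ± 0.957 CPM in Dcir-/- OCs against 139 ± 4.76 CPM in WT OCs.

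Core fucosylation showed as small a difference. Fut8, the only enzyme that adds the core fucose in mammals, had 36.7, 40.4 and 40.2 CPM in Dcir-/- libraries, against 35.1, 35.8 and 39.1 CPM in WT libraries (log2 fold change 0.09, SE 0.09, adjusted p = 0.733). Slc35c1, which carries GDP-fucose into the Golgi, had a log2 fold change of 0.06 (SE 0.08).

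**Figure D3:**
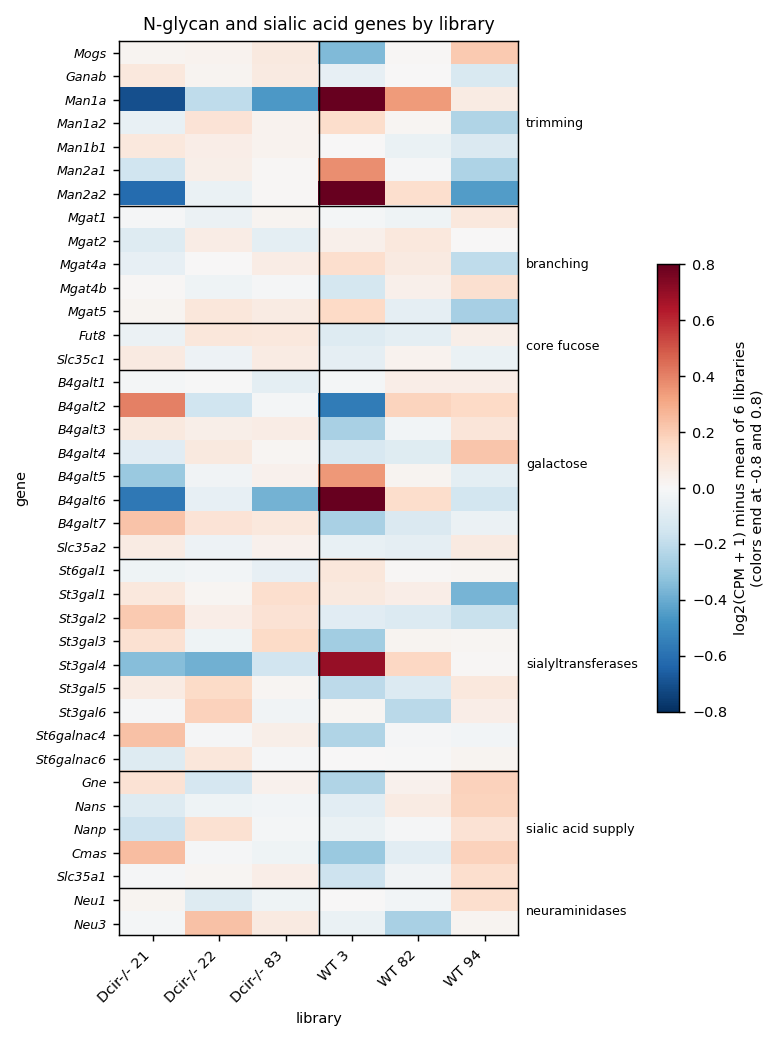
Level of each member in each library as log2(CPM + 1) minus the mean of the 6 libraries (color), with libraries on the x axis, Dcir-/- left of WT, and genes by role on the y axis. Most rows are pale, and the strongest colors are those of Man1a, Man2a2, B4galt6 and St3gal4, which are highest in WT library 3; colors end at -0.8 and 0.8.

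Among the galactosyltransferases, B4galt1, the main enzyme that galactosylates N-glycans, had 135, 137 and 130 CPM in Dcir-/- libraries 21, 22 and 83, against 135, 142 and 142 CPM in WT libraries 3, 82 and 94. Its log2 fold change was -0.06 (SE 0.07, 95% interval -0.22 to 0.09, adjusted p = 0.775). B4galt2, B4galt3 and B4galt4 act on related acceptors, and their log2 fold changes were 0.15 (SE 0.24), 0.12 (SE 0.11) and 0.00 (SE 0.13), while B4galt3 had 0.02 without WT library 3. B4galt2 was near the filter of 1 CPM, with 1.59 to 2.83 CPM in Dcir-/- libraries against 0.965 to 2.27 CPM in WT libraries, and 28.2% of its exon bases are shared with Ccdc24 on the same strand. Slc35a2, the UDP-galactose carrier of the Golgi, averaged 23.7 ± 0.919 CPM in Dcir-/- OCs against 23.1 ± 1.36 CPM in WT OCs.

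B4galt5, B4galt6 and B4galt7 mainly serve other glycans. B4galt5 and B4galt6 make lactosylceramide, the start of most glycosphingolipids. B4galt6 had 22.0, 31.7 and 25.3 CPM in Dcir-/- libraries 21, 22 and 83, against 68.6, 36.6 and 29.8 CPM in WT libraries 3, 82 and 94. WT library 3 stood far above the rest, and WT library 94 lay below Dcir-/- library 22, so the groups overlapped. The log2 fold change was -0.68 (SE 0.27, 95% interval -1.30 to -0.05, unadjusted p = 0.0374 and adjusted p = 0.362 by limma). It was -0.33 without WT library 3, -0.92 without WT library 94 and -0.22 without both Dcir-/- library 21 and WT library 3. B4galt5 averaged 63.2 ± 7.55 CPM in Dcir-/- OCs against 72.7 ± 11.9 CPM in WT OCs (log2 fold change -0.19, SE 0.13).

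B4galt7 transfers a galactose of the linker that joins glycosaminoglycan chains to proteoglycan cores. It had 59.4, 54.4 and 53.6 CPM in Dcir-/- libraries 21, 22 and 83, against 42.0, 46.4 and 48.8 CPM in WT libraries 3, 82 and 94, and all Dcir-/- libraries lay above all WT libraries. Its log2 fold change was 0.28 (SE 0.09, 95% interval 0.08 to 0.48, unadjusted p = 0.0122 and adjusted p = 0.254), the highest of the 38 genes. With 1 library left out it lay between 0.22 and 0.33, and it was 0.18 without both Dcir-/- library 21 and WT library 3. The gene lies at chr13:55599896-55610443 on the plus strand (mm10), and 3.80% of its exon bases are shared with an antisense gene. Its RefSeq promoter (GRCm38.p6, chr13:55599646-55599945, plus strand), shown because this gene had the highest fold change, holds 1 PU.1 match, in capitals, at -99 and no GC box.
B4galt7 promoter: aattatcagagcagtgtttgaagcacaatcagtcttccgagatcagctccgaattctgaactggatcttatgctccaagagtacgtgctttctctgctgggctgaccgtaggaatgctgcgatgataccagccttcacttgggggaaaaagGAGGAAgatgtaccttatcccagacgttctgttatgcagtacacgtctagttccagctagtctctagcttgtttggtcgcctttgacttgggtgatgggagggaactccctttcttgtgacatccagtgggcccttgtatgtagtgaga

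The 9 sialyltransferases had a summed level per kb of 175 ± 3.33 CPM in Dcir-/- OCs against 163 ± 5.52 CPM in WT OCs (SD, n = 3 each). Of these genes 6 had a higher and 3 a lower mean in Dcir-/- OCs, and their median log2 fold change was 0.15. St6gal1 caps galactose on N-glycans with α2,6-linked sialic acid. It had 132, 133 and 129 CPM in Dcir-/- libraries 21, 22 and 83, against 144, 136 and 136 CPM in WT libraries 3, 82 and 94. All Dcir-/- libraries lay below the WT libraries, though by little. This gave a log2 fold change of -0.08 (SE 0.07, 95% interval -0.23 to 0.08, adjusted p = 0.708).

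St3gal4 adds α2,3-linked sialic acid to the galactose of N-glycan branches. It had 8.69, 8.38 and 10.0 CPM in Dcir-/- libraries 21, 22 and 83, against 18.9, 12.8 and 11.4 CPM in WT libraries 3, 82 and 94, again with WT library 3 the highest and no overlap. The means were 9.04 ± 0.879 CPM in Dcir-/- OCs against 14.4 ± 4.02 CPM in WT OCs (SD, n = 3 each). The log2 fold change was -0.59 (SE 0.18, 95% interval -0.995 to -0.18, unadjusted p = 0.0106 and adjusted p = 0.242). It was -0.38 without WT library 3, -0.73 without WT library 94 and -0.36 without both Dcir-/- library 21 and WT library 3. The gene lies at chr9:35046576-35119268 on the minus strand (mm10), and 14.1% of its exon bases are shared with 4930581F22Rik on the other strand, whose reads cannot be told apart since the strand setting of the counting is not given in the sources used here. The RefSeq promoter (GRCm38.p6, chr9:35116815-35117114, minus strand) starts inside the annotated gene span. It is shown because St3gal4 was the N-glycan sialyltransferase with the largest difference, and it holds 1 PU.1 match at -239 and 3 GC boxes at -33, -26 and -19, all on the opposite strand and in capitals.
St3gal4 promoter: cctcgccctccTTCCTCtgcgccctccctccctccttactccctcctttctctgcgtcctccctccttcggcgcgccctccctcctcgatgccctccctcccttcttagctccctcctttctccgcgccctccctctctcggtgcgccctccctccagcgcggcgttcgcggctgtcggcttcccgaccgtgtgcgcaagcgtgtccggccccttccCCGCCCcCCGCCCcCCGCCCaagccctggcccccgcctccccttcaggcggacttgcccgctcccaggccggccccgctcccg

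The other St3gal genes had higher means in Dcir-/- OCs. St3gal2, which acts mainly on O-glycans and gangliosides, had 95.7, 85.9 and 90.0 CPM in Dcir-/- libraries 21, 22 and 83, against 77.8, 76.8 and 73.0 CPM in WT libraries 3, 82 and 94. All Dcir-/- libraries lay above all WT libraries, and no single library stood apart. For St3gal2 the log2 fold change was 0.25 (SE 0.08, 95% interval 0.08 to 0.42, unadjusted p = 0.00996 and adjusted p = 0.239), and it lay between 0.21 and 0.29 with 1 library left out. St3gal2 lies at chr8:110919922-110972480 on the plus strand (mm10). St3gal1 had 339, 324 and 351 CPM in Dcir-/- libraries, against 338, 332 and 247 CPM in WT libraries, where WT library 94 was low (log2 fold change 0.16, SE 0.12, and 0.01 without WT library 94). St3gal3, which like St3gal4 acts on N-glycans, averaged 41.2 ± 2.89 CPM in Dcir-/- OCs against 36.9 ± 4.32 CPM in WT OCs (log2 fold change 0.16, and 0.06 without WT library 3). St3gal5, which makes the ganglioside GM3, had a log2 fold change of 0.15 (SE 0.10). St3gal6 was low, at 1.14 to 1.48 CPM in Dcir-/- libraries against 0.879 to 1.26 CPM in WT libraries, and 26.0% of its exon bases are shared with Dcbld2. The α2,6-sialyltransferases of O-glycans and gangliosides, St6galnac4 and St6galnac6, had log2 fold changes of 0.18 (SE 0.10, adjusted p = 0.510, and 0.10 without WT library 3) and -0.02 (SE 0.08).

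Genes that supply sialic acid were spread on both sides of 0. Gne, whose enzyme starts sialic acid synthesis and limits its rate, had 32.1, 26.9 and 30.4 CPM in Dcir-/- libraries 21, 22 and 83, against 24.9, 30.2 and 33.7 CPM in WT libraries 3, 82 and 94 (log2 fold change 0.01, SE 0.13). Nans and Nanp make and dephosphorylate sialic acid 9-phosphate, and their log2 fold changes were -0.11 (SE 0.09) and -0.04 (SE 0.14). Nans shares 29.6% of its exon bases with Trim14 on the other strand, and Nanp, at 1.61 to 2.18 CPM in Dcir-/- libraries against 1.82 to 2.17 CPM in WT libraries, shares 9.81% with Ninl on the same strand. Cmas activates sialic acid to CMP-sialic acid and averaged 132 ± 14.8 CPM in Dcir-/- OCs against 120 ± 20.3 CPM in WT OCs. Slc35a1, which moves CMP-sialic acid into the Golgi, averaged 22.7 ± 0.491 CPM in Dcir-/- OCs against 22.1 ± 2.40 CPM in WT OCs. All 5 genes overlapped between groups.

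Of the 2 neuraminidases among the members, Neu1 had the higher mRNA level. It had 136, 125 and 131 CPM in Dcir-/- libraries 21, 22 and 83, against 135, 132 and 148 CPM in WT libraries 3, 82 and 94. The groups overlapped, and the log2 fold change was -0.08 (SE 0.08, 95% interval -0.25 to 0.10, adjusted p = 0.740). Neu3, the neuraminidase of the plasma membrane that acts mainly on gangliosides, had 1.36, 1.79 and 1.496 CPM in Dcir-/- libraries, against 1.29, 0.990 and 1.41 CPM in WT libraries. These are low values, and the log2 fold change was 0.19 (SE 0.14, 95% interval -0.14 to 0.52, adjusted p = 0.646). Per kb, Neu1 made up 98.7% of the sum of both in Dcir-/- OCs and 99.0% in WT OCs. Neu2 and Neu4 were not analysed here. Ctsa, the cathepsin that holds NEU1 active in lysosomes, had 1216, 1082 and 1163 CPM in Dcir-/- libraries, against 1181, 1160 and 1208 CPM in WT libraries (log2 fold change -0.04, SE 0.08). Neu1 lies at chr17:34931253-34935953 on the plus strand (mm10). Its RefSeq promoter (GRCm38.p6, chr17:34931003-34931302, plus strand) is shown because Neu1 had a higher mRNA level than Neu3. The capitals mark an AP-1 match at -148 and a GC box on the opposite strand at -67.
Neu1 promoter: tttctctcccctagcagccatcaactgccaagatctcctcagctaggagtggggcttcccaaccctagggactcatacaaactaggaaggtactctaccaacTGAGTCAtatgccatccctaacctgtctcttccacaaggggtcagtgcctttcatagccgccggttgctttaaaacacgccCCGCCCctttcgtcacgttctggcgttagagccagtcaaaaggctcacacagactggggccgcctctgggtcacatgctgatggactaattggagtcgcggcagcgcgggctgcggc

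**Figure D4:**
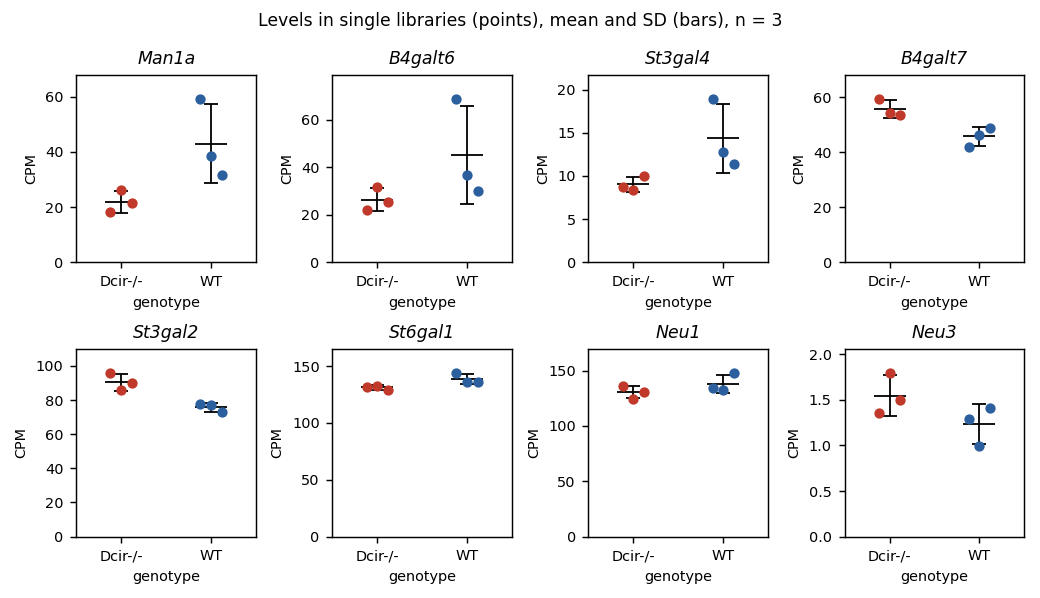
CPM of 8 members in each library (points), with mean and SD as bars, Dcir-/- left of WT in each panel (n = 3 each, y axis starting at 0). Man1a, St3gal4 and St6gal1 lie lower and B4galt7 and St3gal2 higher in all Dcir-/- libraries, whereas B4galt6, Neu1 and Neu3 overlap.

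The largest axis of variation among the members set single libraries apart. On the first principal component of the 38 genes (78.3% of their variance), WT library 3 had a score of 2.16 and Dcir-/- library 21 a score of -1.32. The other 4 libraries lay between, with WT library 94 at -0.48 beside Dcir-/- library 83 at -0.49. Man1a carried 22.4% of that component, B4galt6 21.6%, Man2a2 20.1% and St3gal4 9.53%. WT library 3 was the highest library for 10 members (26.3%) and the lowest for 14 (36.8%), beside 24.8% and 31.2% of all genes tested. WT library 94 was the highest for 10 (26.3%) and the lowest for 8 (21.1%), beside 28.8% and 25.4% of all genes. The same libraries lay at both ends for the macrophage markers, whose mean deviation was -0.80, -0.34 and -0.29 in Dcir-/- libraries 21, 22 and 83, against 0.99, 0.36 and 0.07 in WT libraries 3, 82 and 94 on the log2 scale. Man1a had deviations of -0.70, -0.20 and -0.46 in the Dcir-/- libraries against 0.95, 0.34 and 0.06 in the WT libraries. The part of macrophage RNA in the values of Man1a, Man2a2, B4galt6 and St3gal4 was not tested. OC markers were highest in Dcir-/- library 21, which also had the highest value of B4galt7 and St3gal2, and their part in these values was not tested either.

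**Figure D5:**
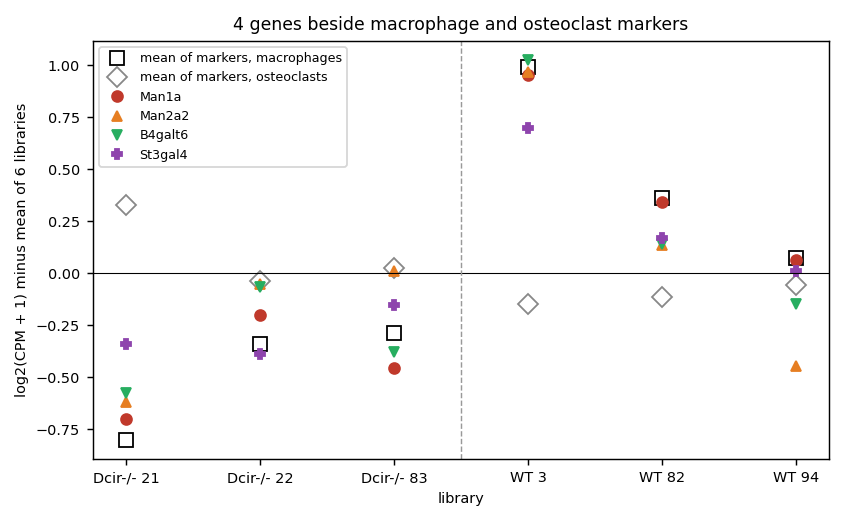
Deviation of each library from the mean of the 6 libraries in log2(CPM + 1) (y axis), for Man1a, Man2a2, B4galt6 and St3gal4 and for the mean of the macrophage and OC markers, with Dcir-/- libraries left of WT libraries on the x axis. In WT library 3 the 4 genes and the macrophage markers are all at about 0.70 or above, and in Dcir-/- library 21 all are below 0.

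The rest of the pathway was looked at through other lists. Of 83 further genes listed, 68 were tested. By limma 0 were called, and an unadjusted p under 0.05 was found for 6 with a lower mean in Dcir-/- OCs and for 0 with a higher mean. These are 8.82% and 0% of the 68 genes, beside 6.68% and 5.82% of all genes tested. The lower count was 3 without Dcir-/- library 21 and 3 without Dcir-/- library 22. It was 7 without WT library 3 and 8 without WT library 94. The higher count was 3 without WT library 94 and 1 without WT library 3. The shares of all genes with these libraries left out are not given here. All Dcir-/- libraries lay below all WT libraries for 12 of the 68 genes (17.6%, beside 9.34% of all genes) and above them for 4 (5.88%, beside 10.5%). Their median log2 fold change was -0.02. The 28 genes that build the lipid-linked precursor and transfer it to protein were split into 14 with a higher and 14 with a lower mean. The lowest p among them was that of Dpm3, a subunit of the enzyme that makes dolichol-phosphate-mannose. Dpm3 had 14.1, 13.7 and 12.97 CPM in Dcir-/- libraries, against 15.5, 16.6 and 20.0 CPM in WT libraries. Its log2 fold change was -0.32 (SE 0.12, adjusted p = 0.317 by limma), -0.22 without WT library 94 and -0.40 without WT library 3. Alg10b, a glucosyltransferase (0.13), Rpn2, a subunit of the oligosaccharyltransferase (0.11), and its small subunit Ost4 (-0.15) followed. In the list of further branching and trimming enzymes, Man1c1, another Golgi α-mannosidase I, had 74.0, 75.7 and 80.4 CPM in Dcir-/- libraries, against 125, 97.2 and 81.3 CPM in WT libraries. As for Man1a, no library overlapped and WT library 3 was the highest. The log2 fold change of Man1c1 was -0.37 (SE 0.14, unadjusted p = 0.0287 and adjusted p = 0.334 by limma). It was -0.21 without WT library 3 and -0.52 without WT library 94. B3gnt2 and B3gnt8, which extend polylactosamine chains, had log2 fold changes of -0.15 (SE 0.08) and -0.18 (SE 0.09), and the endomannosidase gene Manea had -0.12 (SE 0.10).

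Nucleotide sugar genes had 5 higher and 7 lower means of 12. Pgm3 and Uap1 of the UDP-N-acetylglucosamine pathway had log2 fold changes of 0.22 (SE 0.12) and -0.14 (SE 0.09), Gmds of GDP-fucose synthesis 0.27 (SE 0.16), and Galt of galactose use 0.15 (SE 0.12). Lysosomal breakdown genes had 5 higher and 4 lower means of 9, among them Glb1 (0.16), Manba (0.13), Fuca1 (-0.17) and Man2b1 (-0.22). Of the genes that handle free sialic acid, the lyase gene Npl had a log2 fold change of -0.29 (SE 0.13), the esterase gene Siae 0.12 (SE 0.07) and the lysosomal exporter gene Slc17a5 0.01 (SE 0.09). Of the other sialyltransferases 3 passed the filter, and polysialyltransferase St8sia4 (0.15), St8sia6 (-0.07) and St6galnac2 (-0.04) had log2 fold changes with SEs of 0.12 to 0.15. None of these genes had an unadjusted p under 0.05.

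The receptors that bind sialic acid held 4 of the 6 pathway genes with an unadjusted p under 0.05 by limma. All 4 had a lower mean in Dcir-/- OCs, out of 7 receptor genes tested. Over all genes tested, 6.68% had a lower mean at that threshold. Cd33, an inhibitory siglec of myeloid cells in humans, had 10.5, 8.998 and 9.17 CPM in Dcir-/- libraries 21, 22 and 83, against 29.3, 20.7 and 15.3 CPM in WT libraries 3, 82 and 94. Its log2 fold change was -1.06 (SE 0.20, unadjusted p = 6.88e-04 and adjusted p = 0.0929 by limma). It was -0.83 without WT library 3 and -1.28 without WT library 94. Siglec1, a macrophage siglec, had 5.05, 9.20 and 10.0 CPM in Dcir-/- libraries, against 50.05, 21.6 and 13.3 CPM in WT libraries. The log2 fold change of Siglec1 was -1.53 (SE 0.42, adjusted p = 0.201 by limma), -1.03 without WT library 3 and -1.95 without WT library 94. Cd33 and Siglec1 had no overlap between groups and were highest in WT library 3, as the macrophage markers were, whose part in these values was not tested. Mag and Cd22 had log2 fold changes of -0.40 (SE 0.14, adjusted p = 0.282) and -0.85 (SE 0.35, adjusted p = 0.374). Without WT library 3 they were -0.41 and -0.42, and without WT library 94 they were -0.32 and -1.16. Siglec15, a siglec of OCs, lay among the overlapping genes, with 63.9, 50.6 and 58.4 CPM in Dcir-/- libraries, against 56.8, 58.3 and 37.1 CPM in WT libraries, and was named after its values were seen.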

How the data were processed

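RNA of the 6 libraries was made into poly(A)-selected, stranded libraries. Trim Galore 0.6.6 (trimming), HISAT2 2.2.0 (alignment to mm10), Rsubread (reads on exons) and edgeR (normalization) were used by the authors. The deposited values are a signal, namely read counts brought by the authors to 1 shared library size, with 95.8% to 99.8% of values per library not whole. Columns with the log2 fold change and FDR of the authors were not used. For the annotation release, the strand setting and the gene filter, nothing is stated in the sources used here. A share of exon bases overlaps another gene for 16 members.

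Values were divided by the mean column total (33577739.2) and tested with limma 3.58.1 (trend, R 4.3.3, two-sided) on log2(CPM + 1), keeping genes that reached 1 CPM in 3 or more libraries, with genotype as the only term; the plan foresaw this test for values that are not raw counts. The fit was tested on simulated data. An exact permutation test of 3 against 3 libraries cannot give a p below 0.1, so none was run. Fold changes are Dcir-/- over WT. All 38 identifiers matched GENCODE release M21 (mm10). Scaling, filter, pseudocount, limma options and each library left out were tried as alternatives. Members and lists were chosen with earlier results of these data known. The genes named are all members, and in the other pathway lists the 4 genes of smallest p and Neu2, Neu4 and Ctsa. Also named are at most the 2 marker genes of a list with the highest mean CPM, and any singled out after their values were seen (Ms4a1 and Siglec15). Precision was judged by the spread between libraries alone.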

Additional observations from a re-analysis of the deposited data

How the results depend on the processing

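No paired analysis was run, because the groups share no replicate numbers and no pairing is given in the sources used here. Whether cultures or libraries of both genotypes were made together is not said there either. In the 17 alternatives (16 planned, and 1 added after seeing the data that left out both Dcir-/- library 21 and WT library 3), 0 members were called by limma, and the smallest adjusted p of a member was 0.0624. Of 642 member values under these alternatives 606 kept their direction and 36 turned, with none of the turned values above 0.26 in size, and the filter of 5 CPM fitted 34 members. Calls over all genes (21 higher, 41 lower) came to 11 higher and 22 lower with a filter of 5 CPM, 27 lower with a pseudocount of 5 CPM, 25 lower with array weights and 19 lower without the trend, and to 1 to 51 higher and 1 to 93 lower with libraries left out (39 and 87 without WT library 3). The log2 fold change of Mgat4a was 0.011 under quantile normalization and 0.0063 with array weights, and that of B4galt4 was -0.0070 under scaling by median ratios. With libraries left out, the direction of 16 members turned in at least 1 case: the log2 fold change ranged from -0.064 to 0.22 for Mogs, -0.054 to 0.18 for Man1a2, -0.22 to 0.15 for Man2a1, -0.77 to 0.13 for Man2a2, -0.045 to 0.016 for Mgat1, -0.10 to 0.097 for Mgat4a, -0.11 to 0.038 for Mgat4b, -0.26 to 0.27 for B4galt2, -0.062 to 0.11 for B4galt4, -0.28 to 0.033 for B4galt5, -0.0036 to 0.086 for Slc35a2, -0.066 to 0.032 for St6galnac6, -0.16 to 0.11 for Gne, -0.11 to 0.034 for Nanp, -0.070 to 0.26 for Cmas and -0.030 to 0.12 for Slc35a1. The cause was not tested. With 3 libraries a group, Man2a2 had the largest SE of the members (0.32), followed by B4galt6 (0.27), B4galt2 (0.24) and Man1a (0.22), and the adjusted counts do not give the sequencing depth. The median SE was 0.105 over members and 0.120 over all genes.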

Other observations

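The shares of close relatives in the summed level per kb of their family were as follows. Of the 3 Golgi α-mannosidases I, Man1a2 made up 30.8 ± 0.825% in Dcir-/- OCs and 23.6 ± 2.09% in WT OCs, Man1a 10.0 ± 1.43% in Dcir-/- OCs and 15.2 ± 1.77% in WT OCs, and Man1c1 59.2 ± 2.11% in Dcir-/- OCs and 61.2 ± 0.337% in WT OCs (SD, n = 3 each). The family total was 22.7 ± 1.11 CPM per kb in Dcir-/- OCs and 28.9 ± 6.25 CPM per kb in WT OCs. The shares of Man1a, Man1a2 and Man1c1 did not overlap between groups, and no test was run on them. A share also moves with the other members of its family, and the level of Man1a2 itself overlapped between groups (log2 fold change 0.05). Of the 7 β1,4-galactosyltransferases, B4galt7 made up 23.9 ± 1.66% in Dcir-/- OCs and 19.0 ± 2.04% in WT OCs, and B4galt6 5.60 ± 0.937% in Dcir-/- OCs and 9.19 ± 3.87% in WT OCs, beside 39.2 ± 0.991% and 39.6 ± 2.49% for B4galt1 in Dcir-/- and WT OCs. Of the 6 α2,3-sialyltransferases, St3gal4 made up 2.85 ± 0.229% in Dcir-/- OCs and 4.96 ± 1.22% in WT OCs. The shares of B4galt7 and St3gal4 did not overlap between groups either, whereas those of B4galt6 and B4galt1 did. How often the shares of other genes do so is not given here. All these shares were looked at after the values were seen.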
